A study of Mus musculus with 2 samples.

Results

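The brain extracellular matrix genes described here number 8, measured in the hindbrain of the mouse embryo among 43346 Ensembl genes in all. They were found by matching the gene identifiers of the deposited gene and transcript tables to the symbols Vcan, Ncan, Bcan, Acan, Tnc, Tnr, Hapln1 and Reln, and 8 of 8 matched. The tissue was hindbrain of strain B6NCrl at embryonic day 13.5, taken from pooled male and female embryos described as healthy. No treatment, transgene or altered allele is named in the labels. Total RNA longer than 200 nt was used, at 10 ng for each of 2 libraries numbered as biological replicates 1 and 2. Both carry 1 donor label and different biosample labels, so the spread between them may be technical in part. There is 1 group and no contrast between conditions. The comparisons are between genes, between transcripts of a gene, and between the 2 libraries.

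The matrix between neural cells is built on hyaluronan, a long sugar chain made at the cell surface. Lecticans (versican, neurocan, brevican and aggrecan) are proteoglycans that hold hyaluronan at one end and tenascins at the other, and carry chondroitin sulfate chains in between. Link proteins such as Hapln1 fasten a lectican to hyaluronan, tenascin-R can cross-link lecticans, and the adult net around some neurons is made of these parts. Reelin is a secreted glycoprotein that guides migrating neurons through the receptors encoded by Vldlr and Lrp8.

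The libraries held 33080194 and 38756411 estimated counts, of which 32314725 and 37772709 fell on Ensembl genes. The 8 genes took 29524 and 33882 of these, or 0.0914% and 0.0897%. Levels are given as TPM, a transcript abundance corrected for length and library size. Comparing TPM between genes or transcripts takes reads to be spread evenly along each transcript, which was not checked here. A gene was called detected at 1 TPM or more in both libraries, which 15342 genes reached. The hindbrain label was checked on 6 factors of that region, of which 5 were detected. The highest was Meis1, a Hox partner, at 173 ± 0.325 TPM (SD, n = 2), with En2 below 1 TPM. Of 5 forebrain factors 1 was detected, Lhx2, at 18.6 ± 0.856 TPM (SD, n = 2).

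Neurocan was the most abundant of the 8 genes and aggrecan the least, and 6 of 8 genes were detected. The order by mean TPM was Ncan, Vcan, Bcan, Tnc, Reln, Tnr, Hapln1 and Acan. Both libraries gave the same order, and no pair of neighbours overlapped in the values of the 2 libraries. The deposited credibility intervals, whose level is not stated, did overlap in replicate 1 for Tnc and Reln and for Tnr and Hapln1. The median of the 8 genes was 20.9 TPM, beside 15.0 TPM for the 15878 genes with a mean of 1 TPM or more.

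**Figure D1:**
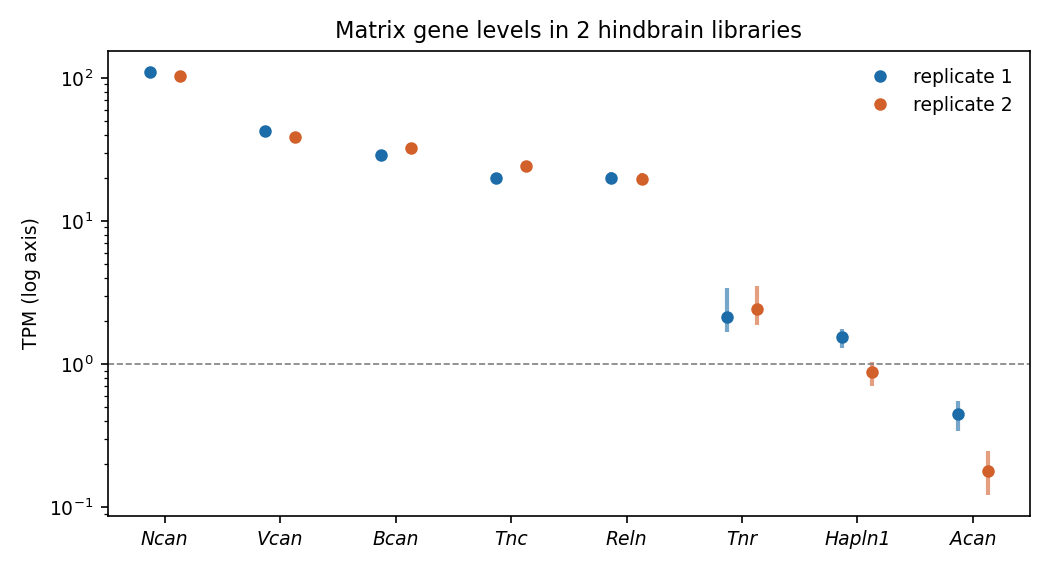
TPM of the 8 genes on a log axis, with 1 point per library and the deposited credibility interval as a bar. The dashed line marks 1 TPM. Ncan stands alone above 100 TPM, 4 genes lie between 19 and 43 TPM, and Hapln1 in replicate 2 and Acan in both libraries lie below the line.

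Neurocan is a lectican made largely in the nervous system. Ncan (ENSMUSG00000002341.8) lies on the minus strand of chromosome 8 from 70093085 to 70120873 in mm10. It had 16130 counts and 110 TPM in replicate 1, and 17937 counts and 104 TPM in replicate 2, a mean of 107 ± 4.55 TPM (SD, n = 2). That level was above 89.6% of detected genes. The annotation used for the tables holds 1 transcript of this gene, of 7195 nt with 1268 codons, so all its counts rest on 1 model. Its TPM lay above its own interval in both libraries. The interval, 105 to 109 TPM in replicate 1 and 99.7 to 103 TPM in replicate 2, surrounded the deposited posterior mean of 107 and 101 TPM. In each library Ncan exceeded Bcan, by 3.78-fold in replicate 1 and 3.22-fold in replicate 2 in TPM.

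Versican is the lectican of migration paths and growing tissue, within and outside the brain. Vcan (ENSMUSG00000021614.12) lies on the minus strand of chromosome 13 from 89655312 to 89742509. It had 42.3 TPM on 6249 counts in replicate 1 and 38.6 TPM on 6760 counts in replicate 2, a mean of 40.4 ± 2.59 TPM (SD, n = 2). Relative to Ncan it stood at 0.384 and 0.373 of the TPM in replicates 1 and 2, a log2 ratio of -1.40 ± 0.0309 (SD, n = 2).

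The form of versican depends on 2 long exons that encode the stretches to which chondroitin sulfate chains are attached. Exon 7, at chr13:89702918-89705797, is 2880 nt long, and exon 8, at chr13:89688285-89693501, is 5217 nt long. Both lengths are multiples of 3, so each can be left out without a shift of frame (960 and 1739 codons). Form V0 holds both exons, V1 holds only exon 8, V2 only exon 7 and V3 neither. V0 and V1 are known from embryonic tissue and V2 from mature brain, while V3 has no site for the chains. The splice junctions that tell these forms apart are shown 5′ to 3′, 20 nt on each side, with the downstream exon in capitals; they are read from GENCODE M21 transcripts on GRCm38, the build of mm10.
V0 and V2, exon 6 to exon 7: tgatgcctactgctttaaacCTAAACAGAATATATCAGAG
V0, exon 7 to exon 8: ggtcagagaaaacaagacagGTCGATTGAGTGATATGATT
V1, exon 6 to exon 8: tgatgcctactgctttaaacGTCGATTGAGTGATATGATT
V2, exon 7 to exon 9: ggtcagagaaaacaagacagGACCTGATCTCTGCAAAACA
V3, exon 6 to exon 9: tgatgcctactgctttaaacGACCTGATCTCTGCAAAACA

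By the deposited TPM of their models, V0 and V3 held most of the Vcan level, and V1 and V2 little. The deposited share of a gene's TPM carried by a transcript was 46.6% and 46.4% for V0 (Vcan-203, 3354 codons) in replicates 1 and 2. For V3 (Vcan-201, 655 codons) it was 35.5% and 25.0%. V2 (Vcan-202, 1615 codons) had 3.96% and 6.11%, and V1 (Vcan-206, 2394 codons) had 3.0% and 3.51%. In transcript TPM, V0 stood at 19.7 and 17.9, V3 at 15.0 and 9.64, V2 at 1.67 and 2.36, and V1 at 1.27 and 1.35. The V0 share was the same in both libraries to within a point, while the V3 share was lower in replicate 2.

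Among the 4 forms alone, V0 made up 54.8% ± 3.50, V3 35.4% ± 6.37, V2 5.99% ± 2.20 and V1 3.85% ± 0.668 of their summed TPM (SD, n = 2). By this split, models with exon 7 made up 60.8% ± 5.71 and models with exon 8 58.7% ± 4.17 of that sum (SD, n = 2). As a share of estimated counts, a measure with no length correction, V0 took 80.2% and 79.6% of the gene's counts and V3 took 11.0% and 7.73%. The whole V3 model, 2321 nt, lies within exons of V0, and so do the models of V1 and V2. The V0 model also has the longest last exon, 2047 nt against 303 nt for V3, 714 nt for V2 and 1019 nt for V1. Of the 4 models only V0 reaches into the far end of that exon. Use of the long exons and of the longer end therefore cannot be told apart in these models. Reads across the splice junctions were not counted. The intervals of V0 (18.2 to 19.9 TPM in replicate 1, 16.7 to 18.1 in replicate 2) and of V3 (12.0 to 16.6 and 7.03 to 11.6) did not overlap between the libraries. Across transcripts with a mean of 1 TPM or more, 4.96% had intervals that did not overlap. V1 and V2 had overlapping intervals, which reached from 0.787 to 1.87 TPM and from 0.417 to 3.39 TPM over both libraries.

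**Figure D2:**
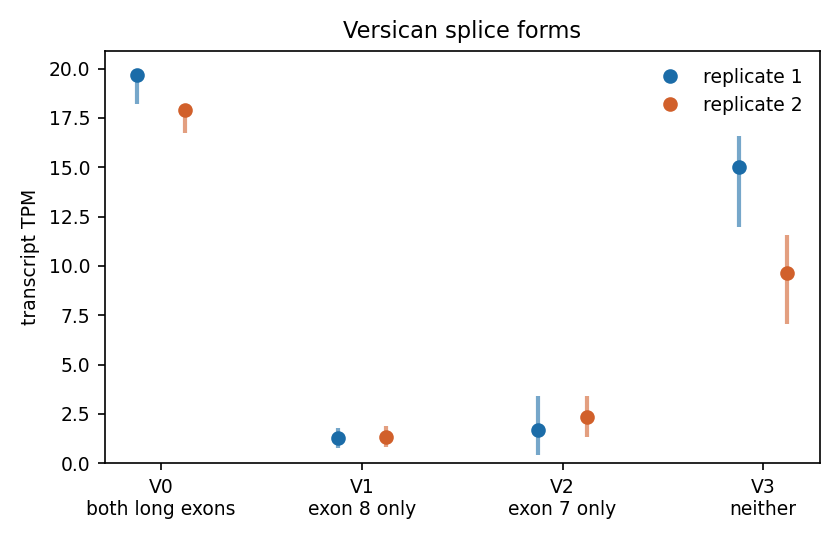
Transcript TPM of the 4 versican forms, with 1 point per library and the deposited interval as a bar. V0 lies at 17.9 and 19.7 TPM and V3 at 9.64 and 15.0, while V1 and V2 stay below 2.5 TPM in both libraries.

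The other 5 annotated Vcan transcripts summed to 4.64 and 7.34 TPM. The highest of them in replicate 2 was Vcan-205, a model of 6 exons and 368 codons. It had 1.32 TPM in replicate 1 and 2.87 in replicate 2, with wide intervals of 0.252 to 2.43 and 1.29 to 4.24 TPM. One, Vcan-204, had no count in either library.

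Brevican is a lectican of the nervous system that later surrounds synapses and nodes. Bcan (ENSMUSG00000004892.9), on the minus strand of chromosome 3 from 87987531 to 88000230, had 29.1 TPM on 1600 counts in replicate 1 and 32.2 TPM on 2111 counts in replicate 2, a mean of 30.7 ± 2.21 TPM (SD, n = 2). The only transcript with a complete coding sequence, Bcan-201 (883 codons), carried 81.9% and 83.2% of that TPM, or 23.8 and 26.8 TPM. Transcripts annotated as retained intron made up the rest. Bcan-206, of 1473 nt with 663 nt outside the exons of Bcan-201, had 9.63% and 8.59%.

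Aggrecan is the main lectican of cartilage and, in the adult brain, of the nets around neurons. Acan (ENSMUSG00000030607.6), on the plus strand of chromosome 7 from 79053483 to 79115099, had 67 counts and 0.45 TPM in replicate 1, and 32 counts and 0.18 TPM in replicate 2. Both values are below 1 TPM, and the intervals, 0.341 to 0.549 and 0.122 to 0.246 TPM, did not overlap. All counts rest on 1 transcript model of 7355 nt.

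Each lectican gene has a link protein gene next to it in the genome, and all 4 link protein genes were low. Hapln1, 43.7 kb from Vcan, is on the plus strand of chromosome 13 from 89539796 to 89611652 (ENSMUSG00000021613.8). It had 159 counts and 1.55 TPM in replicate 1 and 106 counts and 0.88 TPM in replicate 2, a mean of 1.22 ± 0.474 TPM (SD, n = 2), and so reached 1 TPM in replicate 1 only. In the TPM of each library, Vcan exceeded Hapln1 27.3-fold and 43.9-fold. Its model in the tables is 5055 nt long, against 5715 nt in the later annotation used for names. Hapln2, 21.5 kb from Bcan, had 0.46 and 0.38 TPM on 11 and 15 counts. Hapln4, 2.22 kb from Ncan, had 0.32 and 0.52 TPM on 23 and 44 counts. Hapln3, whose annotated end lies 2 nt from that of Acan on the other strand, had 1.23 and 1.69 TPM on 34 and 55 counts and was the only link protein gene detected in both libraries. Ncan and its neighbour differed most, 344-fold in replicate 1 and 199-fold in replicate 2 in TPM. Acan, in contrast, was below Hapln3 in both libraries.

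Tenascin-C is a many-armed glycoprotein of progenitor zones and young glia, and tenascin-R is its relative of later oligodendrocytes and some neurons. Tnc (ENSMUSG00000028364.11), on the minus strand of chromosome 4 from 63959785 to 64047015, had 20.1 TPM on 2905 counts in replicate 1 and 24.2 TPM on 4113 counts in replicate 2, a mean of 22.2 ± 2.94 TPM (SD, n = 2). Tnr (ENSMUSG00000015829.9), on the plus strand of chromosome 1 from 159523769 to 159931729, had 2.14 TPM on 234 counts and 2.42 TPM on 237 counts, a mean of 2.28 ± 0.198 TPM (SD, n = 2). Tnc exceeded Tnr 9.38-fold in replicate 1 and 10.0-fold in replicate 2 in TPM, a log2 ratio of 3.28 ± 0.0666 (SD, n = 2). Over transcripts with a complete coding sequence alone the ratio was 15.9-fold and 24.0-fold, a log2 ratio of 4.29 ± 0.418 (SD, n = 2), so its size and its spread both depend on which Tnr transcripts are counted.

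Among the annotated long models, the only long forms that could be measured, Tnc was divided between forms with and without 1 extra exon. The exon, at chr4:63984460-63984732, is 273 nt long (91 codons) and is exon 14 of 26 in Tnc-203. The junctions that tell inclusion from skipping are shown as above, with the downstream exon in capitals.
Tnc with the extra exon, exon 13 to exon 14: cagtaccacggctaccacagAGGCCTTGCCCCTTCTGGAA
Tnc without the extra exon: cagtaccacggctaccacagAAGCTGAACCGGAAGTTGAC
Tnc-203, with the exon (2110 codons), had 11.0 TPM in replicate 1 and 14.5 in replicate 2, or 54.8% and 59.9% of the gene. Tnc-204, without it (2019 codons), had 9.08 and 9.45 TPM, or 45.2% and 39.0%. The interval of Tnc-203 moved from 8.84 to 11.7 TPM in replicate 1 to 12.8 to 15.4 in replicate 2, without overlap, and that of Tnc-204 overlapped (7.48 to 10.4 and 7.85 to 10.5). Tnc-204 differs from Tnc-203 in its first exon too, which lies further upstream. Tnc-201, which skips the exon but shares the first exon of Tnc-203, had no count in either library, with an interval of up to 0.736 and 0.433 TPM. In these models, use of the exon and of the start therefore cannot be told apart.

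The TPM of Tnr and of Reln came in large part from short transcripts on few counts. For Tnr, the 2 transcripts with the whole coding sequence of 1358 codons, Tnr-201 and Tnr-202, held 95.6% and 92.0% of the counts but only 58.9% and 41.7% of the TPM, 1.26 and 1.01 TPM. Tnr-205, a retained-intron model of 660 nt at the start of the gene, had 10.2 and 17.0 counts and yet 0.88 and 1.24 TPM, 41.0% and 51.2% of the gene. Of its 660 nt, 476 nt lie in exons of Tnr-202. The gene's TPM was higher in replicate 2 while the TPM of its whole coding transcripts was lower there.

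Reln (ENSMUSG00000042453.10), on the minus strand of chromosome 5 from 21884454 to 22344702, had 19.9 TPM on 2180 counts in replicate 1 and 19.5 TPM on 2586 counts in replicate 2, a mean of 19.7 ± 0.262 TPM (SD, n = 2). Of 12 annotated transcripts, 2 have the complete coding sequence, and they held 83.5% and 85.3% of the counts but 38.3% and 40.1% of the TPM. In TPM, the complete forms stood at 7.62 and 7.81. Reln-205, a noncoding model of 891 nt at the end of the gene, had 130 and 158 counts and 7.95 and 8.18 TPM, a share of 40.0% and 41.9%. It shares 761 nt with exons of the long transcript Reln-207. Reln-203, a retained-intron model, had 12.4% and 9.04%. The 10 transcripts without a complete coding sequence summed to 12.25 and 11.68 TPM, mostly from Reln-205 and Reln-203. The level of reelin-coding RNA therefore depends on whether those 10 are counted. Beside 22.2 TPM for Tnc, Reln stood at 19.7 TPM by the gene and at 7.72 TPM by its complete coding transcripts.

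The 2 complete Reln forms differ by an exon of 6 nt (2 codons), exon 64 of 65 in Reln-207, at chr5:21891562-21891567. They are shown 5′ to 3′ with that exon in capitals.
Reln-207, with the exon: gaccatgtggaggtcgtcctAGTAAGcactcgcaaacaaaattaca
Reln-201, without the exon: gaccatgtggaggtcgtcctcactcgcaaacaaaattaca
Reln-207 (3461 codons) had 7.45 and 7.65 TPM and Reln-201 (3459 codons) 0.17 and 0.16 TPM in replicates 1 and 2. The form with the exon made up 97.9% ± 0.129 of the summed TPM of both (SD, n = 2). The models also differ in the last exon, 1116 nt in Reln-207 and 320 nt in Reln-201, so use of the exon and of the longer end cannot be told apart in these models.

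By TPM of complete coding transcripts, Hapln1 stood above Tnr and the rest of the order was kept. Vcan then had 36.5 ± 3.42, Bcan 25.3 ± 2.09, Reln 7.72 ± 0.134 and Tnr 1.14 ± 0.177 TPM (SD, n = 2), while Ncan, Tnc, Hapln1 and Acan kept their values. On this scale Ncan exceeded Bcan 4.62-fold and 3.87-fold, and Vcan stood at 0.354 and 0.329 of Ncan, in replicates 1 and 2. The libraries' values of Bcan (23.8 and 26.8) and Tnc (20.1 and 24.2) overlapped on this scale, as did those of Tnr (1.26 and 1.01) and Hapln1 (1.55 and 0.88).

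**Figure D3:**
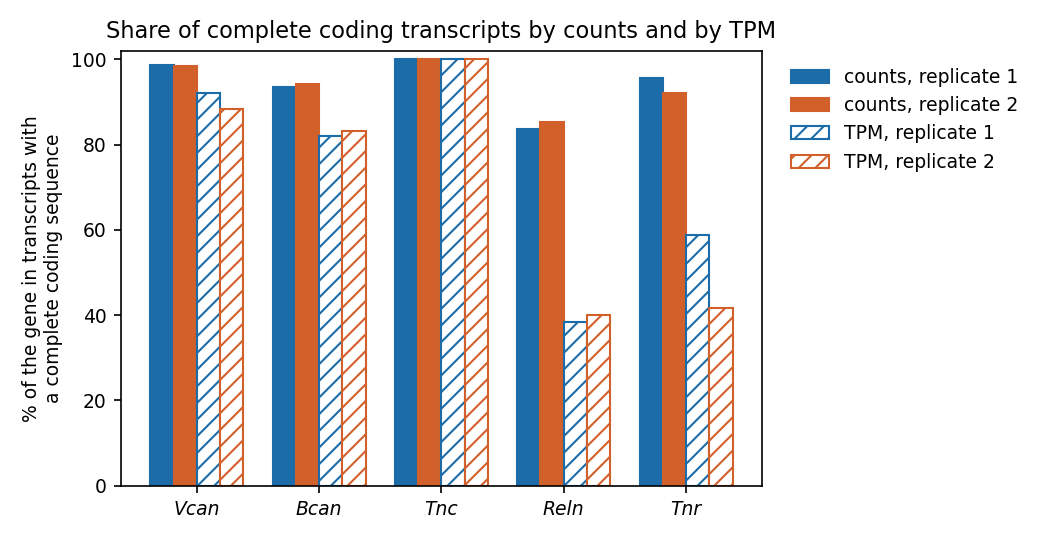
Percent of each gene carried by transcripts with a complete annotated coding sequence, as a share of estimated counts (filled bars) and of TPM (hatched bars) in each library, for the 5 genes with more than 1 transcript. For Reln the share is above 83% of counts and near 40% of TPM, and for Tnr it is above 92% of counts and below 60% of TPM.

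Between the libraries, 6 of the 8 genes differed beyond counting error, 4 lower and 2 higher in replicate 2. The two-sided exact binomial test, with Benjamini-Hochberg adjustment over all 19687 genes tested, called 12.6% of genes, 5.49% lower and 7.07% higher. It compares 2 libraries, not conditions, and calls small differences where counts are high: 16.5% of genes with 1000 or more counts in the pair were called, and of the 5 matrix genes in that range 4 were. For scale, edgeR gave 6.09% as the coefficient of variation shared by all genes, which corresponds to an SD of 0.124 for the log2 ratio of 2 libraries.

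Acan and Hapln1 differed most, and they alone of the 8 combined a call with a change of 1.5-fold or more, as did 3.15% of all genes tested. By scaled counts Acan was 2.44-fold higher in replicate 1 than in replicate 2 (95% exact binomial interval 1.58 to 3.84, adjusted p = 0.000436, exact binomial test), and Hapln1 was 1.75-fold higher (1.36 to 2.26, adjusted p = 0.000213, exact binomial test). Of genes with 50 to 300 counts in the pair, as these have, 9.72% were called. Tnc was 1.22-fold higher in replicate 2 (1.16 to 1.28, adjusted p = 6.01e-14, exact binomial test) and Bcan 1.13-fold higher (1.06 to 1.21, adjusted p = 0.0028, exact binomial test). Vcan was 1.08-fold and Ncan 1.05-fold higher in replicate 1 (adjusted p = 0.00061 and 0.000494, exact binomial test), with log2 ratios of -0.11 and -0.07 that were smaller than the SD given above. Reln had a log2 ratio of scaled counts of 0.03 (95% exact interval -0.06 to 0.11) and Tnr of -0.20 (-0.47 to 0.07), with adjusted p of 0.774 and 0.381 in the exact binomial test. The deposited TPM intervals did not overlap between the libraries for Ncan, Tnc, Hapln1 and Acan, 4 of 8 genes, against 9.27% of the 15878 genes with a mean of 1 TPM or more. Tnc was the 1 higher in replicate 2, against 4.45% of those genes, and the other 3 were lower, against 4.82%. Over all genes with a count, which take in low genes such as Acan, 6.26% had intervals that did not overlap.

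Cell type markers differed between the libraries too. Counts of marker and pathway genes called higher or lower in replicate 2 come from the same exact binomial test, which called 7.07% of all genes higher and 5.49% lower. Of the 6 hindbrain factors 2 were called higher and none lower. Over all genes with a mean of 1 TPM or more the median log2 ratio, replicate 2 over replicate 1 with 1 added to TPM, was -0.01. In bulk tissue, fewer cells of a type and less RNA per cell cannot be told apart. Of 8 cartilage genes 5 were called lower and 1 higher in replicate 2: Col9a1, a collagen of cartilage, had 10.6 and 4.81 TPM, Matn1 1.55 and 0.58 TPM, Matn3 0.58 and 0.18 TPM and Col2a1 56.6 and 43.3 TPM. Sox9, a factor shared by cartilage and neural progenitors, was the 1 called higher, with 44.6 and 53.9 TPM. The summed level of the list was 138 and 124 TPM. Its median log2 ratio was -0.29 over the 6 of its genes with a mean of 1 TPM or more, which leaves out Matn3 and Comp. None of its genes was at 0 in both libraries. Acan and Hapln1, both abundant in cartilage, were lower in the same library, and the part of cartilage in their difference was not tested. Of 8 meningeal and mesenchymal genes 3 were called lower and none higher, with Col1a1 at 176 and 104 TPM, and the list summed to 678 and 516 TPM, with a median log2 ratio of -0.26.

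Of 6 radial glia genes, markers of progenitors, 4 were called higher and 2 lower in replicate 2. Fabp7 had 1787 and 2042 TPM, Vim 601 and 625 TPM, and Hes5 150 and 125 TPM. The list summed to 2725 and 2989 TPM, with a median log2 ratio of 0.09. Of 6 neuron genes 1 was called higher and 4 lower, with Tubb3, a neuronal tubulin, at 1543 and 1475 TPM. The neuron genes summed to 3962 and 3801 TPM, with a median log2 ratio of -0.05. Both medians were smaller in size than the SD of 0.124 given above. All genes of the neuron and radial glia lists had 1000 or more counts in the pair, where 16.5% of genes were called. Of 5 oligodendrocyte precursor genes 1 was called lower, Olig1, at 23.8 and 17.4 TPM. Their sum was 44.8 and 37.6 TPM, with a median log2 ratio of -0.13. Of 6 rhombic lip genes 4 were called higher and 1 lower. Atoh1 had 6.35 and 16.4 TPM and Zic1 11.1 and 17.3 TPM. The rhombic lip sum was 70.6 and 89.5 TPM, with a median log2 ratio of 0.35. Choroid plexus genes were called higher in 6 of 6, summing to 633 and 1190 TPM with a median log2 ratio of 1.01. Among them Ttr, a thyroid hormone carrier, had 533 and 1022 TPM, Kcne2 18.5 and 40.4 TPM, Folr1 16.8 and 31.6 TPM, Kcnj13 11.2 and 25.3 TPM and Clic6 3.92 and 9.35 TPM. Of 5 endothelial genes 1 was called higher and none lower, with sums of 152 and 159 TPM and a median log2 ratio of 0.07. The part of these cell types in the differences of the matrix genes was not tested.

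**Figure D4:**
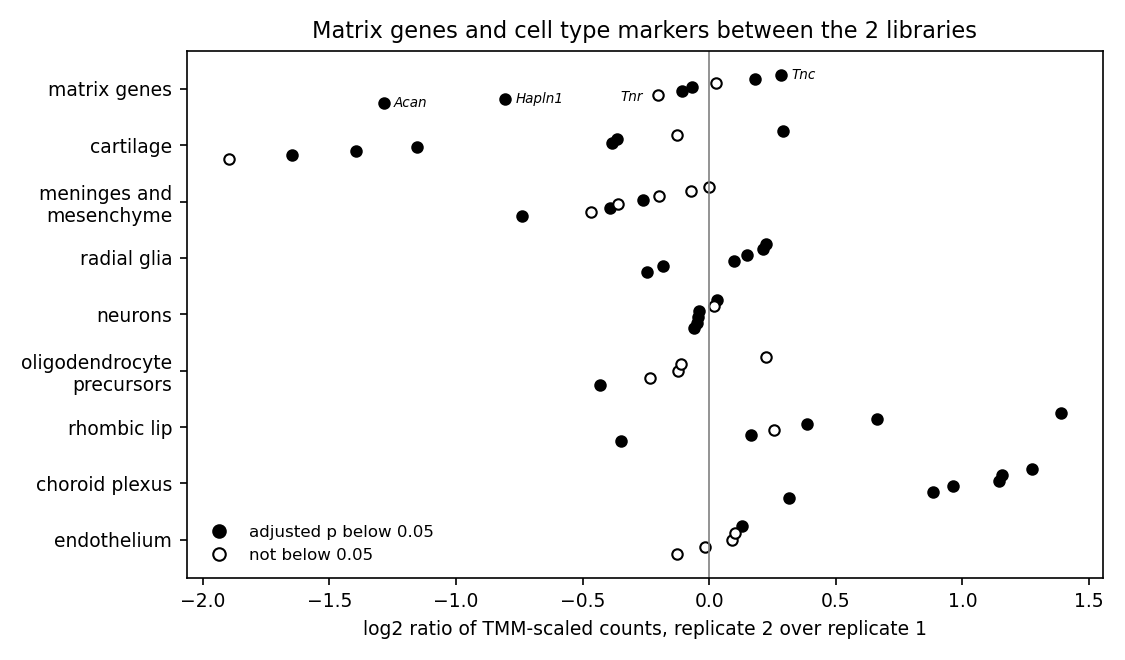
Log2 ratio of scaled counts, replicate 2 over replicate 1, for the 8 matrix genes and for marker lists, with 1 point per gene. Filled points had an adjusted p below 0.05 in the exact binomial test. Acan and Hapln1 lie to the left with several cartilage genes, and choroid plexus genes lie to the right.

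Genes that make, bind or cut the matrix were measured in 8 lists, described here by the number detected and by their levels. All 13 genes of chondroitin sulfate chain synthesis were detected, with a median of 11.7 TPM. B3gat3, which completes the linker between protein and chain, was highest at 70.0 ± 1.14 TPM (SD, n = 2), then Pxylp1, a xylose phosphatase of that linker, at 45.8 ± 1.06 TPM (SD, n = 2). B4galt7, a galactosyltransferase of the linker, had 38.4 ± 2.98 TPM and Xylt1, which starts the chain, was lowest at 1.72 ± 0.233 TPM (SD, n = 2). None of the 13 was called between the libraries. Of 10 genes for sulfation and epimerization of the chain 9 were detected, led by Chst15 at 18.1 ± 1.40 TPM and Chst12 at 15.5 ± 0.099 TPM, then Dsel at 6.93 ± 0.191 TPM, and Chst3 was the lowest detected at 1.56 ± 0.0919 TPM (SD, n = 2). Of these, 1 was called, Chst15, higher in replicate 2, and the median of the list was 4.89 TPM.

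Hyaluronan genes were uneven, with a median of 2.33 TPM. All 3 synthases were below 1 TPM in both libraries: Has1 had 0.58 and 0.62 TPM, Has2 0.54 and 0.53 TPM and Has3 0.43 and 0.71 TPM. Hyal2, a hyaluronidase, had 68.1 ± 3.97 TPM and Cemip2, a hyaluronan-degrading surface protein, 38.2 ± 2.43 TPM (SD, n = 2). Hmmr, a mitotic protein that also binds hyaluronan, had 8.54 ± 0.757 TPM and Cd44, the main hyaluronan receptor, 2.33 ± 0.156 TPM (SD, n = 2). In the list 5 of 9 genes were detected and 1 was called, Cemip2, lower in replicate 2.

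Other proteoglycans were all detected, 10 of 10, with a median of 41.6 TPM. Most can carry chondroitin or dermatan sulfate, while Lum and Fmod are known as keratan sulfate proteoglycans. Dcn, a small proteoglycan of connective tissue, had 70.2 ± 1.38 TPM, Lum, its relative, 59.7 ± 4.28 TPM and Spock2, a testican, 58.6 ± 4.87 TPM, with Cspg4, the NG2 proteoglycan, lowest at 2.50 ± 0.311 TPM (SD, n = 2). Between the libraries 1 was called higher and 4 were called lower in replicate 2. Of the remaining link protein and tenascin genes, Hapln3 alone of 5 was detected, and their median was 0.42 TPM. Tnn, a tenascin found in bone, had 26 and 7 counts and 0.22 and 0.05 TPM. It was called lower in replicate 2 (adjusted p = 0.00288, exact binomial test). Hapln2, Hapln3, Hapln4 and Tnxb went the other way, with log2 ratios of scaled counts of 0.23, 0.47, 0.72 and 0.22, and none was called.

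All 16 receptors and binding partners were detected, with a median of 21.1 TPM. Ptprs, a receptor for chondroitin sulfate chains, was highest at 160 ± 1.20 TPM, above Itgb1, an integrin subunit, at 79.9 ± 2.79 TPM and Ptprd, a phosphatase related to Ptprs, at 71.7 ± 2.06 TPM, with Itgb3, another integrin subunit, lowest at 1.53 ± 0.0141 TPM (SD, n = 2). In this list 4 of 16 genes were called higher and 1 lower in replicate 2 by the exact binomial test, beside 7.07% and 5.49% of all genes. All 11 genes of the Reelin pathway were detected, with a median of 43.7 TPM, and 2 were called higher and 1 lower. They were led by the adaptor Crk at 97.3 ± 0.460 TPM, Dab1, the adaptor of the Reelin receptors, at 57.3 ± 2.53 TPM and the kinase Fyn at 56.6 ± 1.37 TPM, and Itga3 was lowest at 8.76 ± 0.636 TPM (SD, n = 2). The receptors Lrp8, at 32.3 ± 1.82 TPM, and Vldlr, at 17.8 ± 2.04 TPM (SD, n = 2), are added for their role. In gene TPM, Reln stood at 1.03 and 1.19 times Vldlr in replicates 1 and 2, a ratio that rests on the short Reln transcripts described above. The ratio depends on Vldlr too, which had 19.2 and 16.4 TPM while the log2 ratio of its scaled counts was 0.04.

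All 15 matrix proteases and their inhibitors were detected, with a median of 10.2 TPM. Plat, the tissue plasminogen activator, had 80.1 ± 6.12 TPM, the inhibitors Timp2 and Timp3 38.1 ± 1.45 and 28.2 ± 2.81 TPM, and Adamts9, a protease that cuts lecticans, was lowest at 1.34 ± 0.00707 TPM (SD, n = 2). By the exact binomial test 6 of 15 were called higher and 3 lower in replicate 2, beside 7.07% and 5.49% of all genes. No gene of these 8 lists apart from Tnn combined a call with a change of 1.5-fold or more.

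**Figure D5:**
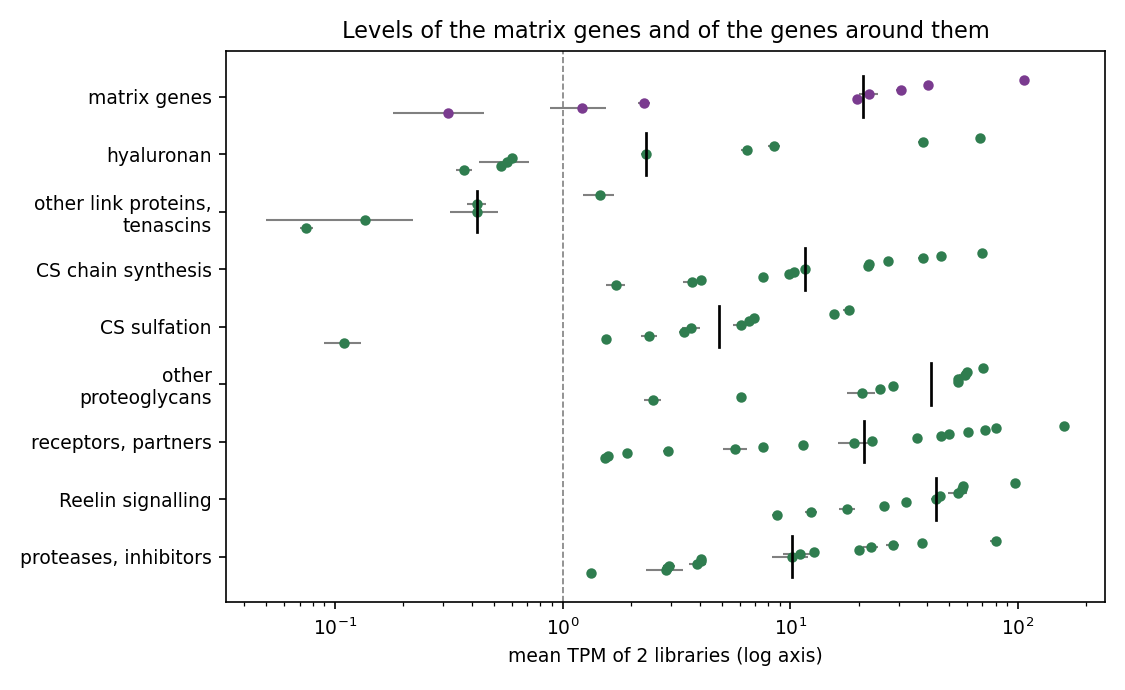
Mean TPM on a log axis for the 8 matrix genes and for each gene of the 8 surrounding lists, with the range of the 2 libraries as a grey line and the median of each list as a black bar. CS stands for chondroitin sulfate and the dashed line marks 1 TPM. Chain synthesis, other proteoglycans, receptors, Reelin signalling and proteases lie wholly above the line, while the other link proteins and tenascins lie almost wholly below it.

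Several genes overlap those described. The noncoding gene Gm38039 lies in the last exon of Tnr on the other strand and had 33.2 and 56.2 counts, beside 234 and 237 for Tnr. For Tnc, 8030451A03Rik on the other strand had 18 and 28.1 counts, and for Vcan, Gm4117 had 34 and 44. Whether the counting used strand is not given in the sources used here, so reads of such pairs may not be told apart, which matters most for Tnr.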

How the data were processed

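The labels link to the manual of a SMARTer Ultra Low RNA kit for library making. The authors deposited 1 gene table and 1 transcript table per library, built on mm10 and GENCODE M4 according to a note the authors deposited. The tables hold estimated counts (expected counts, not whole), TPM, FPKM and credibility intervals of unstated level for the coverage signal in TPM and FPKM, and the percent of a gene's TPM in each transcript, all as deposited by the authors. The aligner is not given in the sources used here, nor are the counting program and the use of strand.

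Names, positions and exons came from GENCODE M21 on GRCm38 by identifier without version; 42462 of 43346 Ensembl genes matched, and 38 of 39 transcripts of the 8 genes had the same length in both releases. All 149 listed symbols matched, Tmem2 as Cemip2 through RefSeq synonyms (GRCm38.p6). A transcript was called complete where M21 marks it protein coding with neither end missing, which includes the short Vcan-205 and Tnc-202. Transcripts with 5% or more of the gene in both libraries were to be described, and the 4 versican forms were added.

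Rows that are not Ensembl genes stayed out of library sizes and tests, and Ensembl genes held 94.5% and 94.0% of TPM. Counts were rounded. TMM factors and the coefficient of variation came from edgeR 4.0.16 (R 4.3.3) with an intercept only, since 1 group allows no quasi-likelihood test. The exact binomial test (SciPy 1.17.1, numpy 2.4.6, pandas 2.3.3, Python 3.11.15) took genes with 10 or more counts in the pair, with adjusted p below 0.05 as a call. Intervals of ratios are exact (95%) and cover counting error only, since the binomial model has no term for other spread. PCR copies were not told apart by molecular identifiers, so counting error itself may be understated. At this depth 3 counts on 1 kb of transcript correspond to 0.0907 and 0.0774 TPM in replicates 1 and 2. The log2(TPM + 1) scale was used for list medians and understates changes of low genes. Methods were tested on simulated data. For the binomial test the simulated counts held counting error only, so they cannot show how it behaves with the wider spread of these libraries. DESeq2 1.42.0 gave alternative size factors.

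The members and lists were chosen with earlier results of these data known. The rule for named genes took the 8 members, the 3 highest and the lowest detected gene of each list, and called genes with a change of 1.5-fold or more. It was followed in full for the 8 pathway lists; of the 10 marker lists the text prints all called genes past 1.5-fold but only some of the others that the rule takes. Other genes named beside them were chosen after their values were seen. No gene was ranked by likeness of pattern, since 2 libraries of 1 group hold no pattern across conditions.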

Additional observations from a re-analysis of the deposited data

How the results depend on the processing

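No paired analysis was possible because there is 1 group and no contrast within replicate numbers. The count of detected genes was 6, and ranged from 5 at 5 TPM to 7 at 0.5 TPM; it was 6 without replicate 1 and 7 without replicate 2, where Hapln1 passes. The same 6 genes were called with DESeq2 size factors, total counts, no minimum count and a minimum of 50 counts, with adjusted p for Bcan, the highest of the 6, between 0.00241 and 0.00409 in the exact binomial test. These settings kept that test and changed only the scaling or the count filter. They cannot show whether the calls would hold against spread beyond counting error. The 4 genes with disjoint intervals kept their directions with FPKM intervals and with replicate 2 rescaled. No called difference changed sign in any alternative. Restriction to complete coding transcripts, chosen after the data were seen, moved the mean of Reln from 19.7 to 7.72 TPM and of Tnr from 2.28 to 1.14 TPM, and the log2 ratio of Tnc over Tnr from 3.28 to 4.29. The log2 ratios between libraries of the 2 uncalled genes changed sign: Tnr, 0.12 in TPM, was -0.18 in CPM and -0.17 by complete coding transcripts, and Reln, -0.03 in TPM, was 0.03 in both. The log2 ratio of Acan, -0.30 with 1 added to TPM, was -0.97 with 0.1 added. By counts in place of TPM, 9 transcript shares moved by more than the SD of the libraries and 3 did not: the share of Reln-207 was 82.8% in place of 38.4%, and of Vcan-201 9.37% in place of 30.2%. The log2 ratio of Ncan over Bcan was 1.80 in TPM and 3.21 in CPM, and that of Tnc over Tnr 3.88 in CPM, which is not divided by length. Depth limits Acan, Tnr and the link protein genes, which rest on 11 to 237 counts per library.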
